A study of Mus musculus with 2 samples.

Results

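The genes Id1, Id2, Id3 and Id4, which encode the 4 inhibitor of DNA binding (ID) proteins, the bone morphogenetic protein (BMP) ligand genes Bmp2, Bmp4 and Bmp7, and the BMP receptor gene Bmpr1a were followed through the cell classes of the adult mouse mammary epithelium. These 8 genes were chosen by symbol from the 27998 genes of the count matrices, and all 8 were found. Each of the 4 ID genes had its own distribution over the epithelial classes. Id1 was highest in luminal progenitor (LP) cells, Id2 was high in basal and LP cells, Id3 was high in basal and mature luminal (ML) cells, and Id4 was found in basal cells. Among the ligand genes, Bmp7 was found in the basal class, as was Id4, Bmp2 was highest in LP cells, and Bmp4 was near the limit of detection. Bmpr1a differed by less than 2-fold between the classes.

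ID proteins are helix-loop-helix proteins without a DNA-binding domain. They pair with E proteins such as those encoded by Tcf3, Tcf4 and Tcf12 and keep them from binding DNA, and they are widely used as markers of undifferentiated or proliferating cells. BMP ligands bind pairs of type I and type II receptors, of which BMPR1A is a type I receptor, and the receptors phosphorylate SMAD proteins that enter the nucleus with SMAD4. Id1, Id2 and Id3 are among the best known direct targets of this signal. The mammary epithelium has a contractile basal layer and an inner luminal layer, and the luminal layer holds hormone receptor-negative progenitors and hormone receptor-positive mature cells.

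Cells came from the mammary glands of adult FVB/NJ mice, with 8 mice in the series, no treatment, and pooling of animals into each of 2 libraries made on the 10X Chromium platform. One library held total epithelium (sorted as Lin-CD24+ cells) and the other sorted basal cells (Lin-CD29hiCD24+). There was 1 library per group, so no difference has a replicate check, no p-value is given, and every interval covers counting error only. The total epithelium library held 3302 cells with 802 to 12967 unique molecular identifiers (UMIs, 1 per captured RNA molecule) per cell and a median of 2426. The sorted basal library held 4771 cells with 137 to 1946 UMIs per cell and a median of 487, and 28 barcodes occurred in both libraries. Sort, animals and depth differ together between the libraries and cannot be told apart.

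Cells of total epithelium with 10 or more counts of Krt5, Krt14 and Acta2 together were taken as basal (1280 cells). Those with 10 or more counts of Prlr, Stc2 and Gpx3 were taken as ML (1133 cells), and other cells with 3 or more counts of Krt8, Krt18 and Krt19 as LP (766 cells). Another 26 cells met both the basal and the ML rule and 97 met none, and both sets were kept apart. Markers that the rule did not use went with the class names. The summed level of 7 basal markers was 15175 CPM (counts per 1000000 counts of the group) in basal cells, 111.2 in LP cells and 48.6 in ML cells. That of 6 LP markers was 398.6, 10339 and 996.2 CPM in the same order, and that of 6 ML markers was 75.4, 763.9 and 7610 CPM. In the sorted library, 1757 cells met the basal rule at their lower depth, and 410 of them lay within 2 counts above the threshold. Of its 4771 cells, 2811 met no rule, at a median of 399 UMIs, and 195 met the LP rule. These 2 sets held 10261 and 8093 CPM of the basal markers and 231.3 and 138.3 CPM of Id4. The basal rule therefore left out sorted cells with basal markers, and comparisons between libraries cover the cells that met it. ML cells carried 1281 CPM of the fibroblast gene Dcn and 28.8, 20.6 and 69.7 CPM of Col1a1, Col1a2 and Col3a1. Of the 1133 ML cells, 329 held 2 or more counts of stromal, vascular, neural or blood markers and 13 held 2 or more collagen counts.

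The 8 genes lie on chromosomes 2, 4, 12, 13 and 14 of the GRCm38 (mm10) assembly and are protein coding. Id1 (ENSMUSG00000042745), Bmp2 (ENSMUSG00000027358) and Bmp7 (ENSMUSG00000008999) share chromosome 2, at 152736251-152737410, 133552159-133562885 and 172868012-172940321. Id2 (ENSMUSG00000020644) is at 25093799-25097140 on chromosome 12, and Id3 (ENSMUSG00000007872) at 136143497-136145755 on chromosome 4. Id4 (ENSMUSG00000021379) is at 48261228-48266026 on chromosome 13. Bmp4 (ENSMUSG00000021835) and Bmpr1a (ENSMUSG00000021796) are on chromosome 14, at 46383520-46390669 and 34410734-34503341. Id4 had among the most class-bound levels of the 8 genes, so the 250 bases before its RefSeq start site are shown, at chr13:48260866-48261115 on the plus strand of GRCm38.p6, outside the annotated exons. Capitals mark matches to GGCGCC, a GC-rich motif of BMP-activated SMAD proteins, and to CCAAT, which reads ATTGG on the other strand.
Id4 upstream: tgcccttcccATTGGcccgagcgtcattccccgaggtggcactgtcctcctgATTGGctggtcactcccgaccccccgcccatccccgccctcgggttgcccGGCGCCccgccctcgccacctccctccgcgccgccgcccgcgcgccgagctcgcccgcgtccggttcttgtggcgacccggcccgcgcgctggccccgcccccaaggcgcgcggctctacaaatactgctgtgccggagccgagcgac
The GGCGCC match starts 148 bases before the start site, and 9.59% of 32851 promoter windows of this length hold one on either strand. The CCAAT matches start 240 and 198 bases before it, and 33.9% of windows hold at least 1. GGCGCC also occurred in the windows of Id2 and of Bmpr1a, which differed by less than 2-fold between the classes, and not in those of Id3 and Bmp4. A match is a string of letters and was not tested as a binding site.

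Id1 was highest in LP cells. Its level was 252.5 CPM in LP cells (95% Poisson interval 231.7 to 274.6), 85.6 in basal cells (74.8 to 97.5) and 30.7 in ML cells (25.6 to 36.6). The 3 intervals did not overlap. LP cells were 2.95-fold above basal cells (2.52 to 3.46) and 8.22-fold above ML cells (6.76 to 10.1), and basal cells were 2.79-fold above ML cells (2.23 to 3.49). Id1 was also uneven within the LP class, where 178 of 766 cells held a count, 65 cells held 3 or more, and the highest cell held 21.

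Id2 separated ML cells from the other classes. It stood at 272.3 CPM in basal cells (252.8 to 292.9), 251.6 in LP cells (230.8 to 273.6) and 57.1 in ML cells (50.1 to 64.9). Basal and LP cells did not differ beyond counting error, with a ratio of 1.08 (0.967 to 1.21). Both were above ML cells, by 4.77-fold for basal (4.11 to 5.55) and 4.41-fold for LP (3.77 to 5.16).

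Id3 had the opposite luminal pattern. Its level was 543.0 CPM in ML cells (520.7 to 565.9), 453.3 in basal cells (428.0 to 479.6) and 74.1 in LP cells (63.1 to 86.5). ML and basal cells differed by 1.2-fold (1.12 to 1.29), and ML cells were 7.33-fold above LP cells (6.24 to 8.65). Basal cells were 6.12-fold above LP cells (5.18 to 7.26). With the class rule applied after each cell was thinned to 800 UMIs, the basal to LP ratio was 1.60 and no longer reached 2-fold, and the ML to LP ratio was 2.19. At stricter marker thresholds these ratios were 2.48 and 3.43, and at looser ones 10.3 and 11.8. These settings changed the rules of all classes together, and the cause of the differences was not tested.

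Among the epithelial classes of total epithelium, Id4 was a basal gene. It had 205 counts in basal cells, or 77.3 CPM (67.1 to 88.6), 3 counts in LP cells and 2 in ML cells. Its levels in LP and ML cells were 1.80% and 0.626% of the basal level. To gauge free RNA, the 4 genes Myl9, Cxcl14, Csn3 and Areg were used, each far highest in 1 class. Over these, the level in the other classes was 0.198% to 9.31% of that in the highest class. The luminal Id4 levels were within this range. The highest of these shares, for Csn3 in ML cells, was not an even level over cells, since the LP marker list stood at 137.0, 333.4 and 1729 CPM in ML cells from the fewest to the most UMIs. Without Csn3 the range was 0.198% to 5.51%, with Areg in LP cells at the top. The ML marker list was uneven there too, at 1412, 707.4 and 596.9 CPM in LP cells from the fewest to the most UMIs. A level within either range therefore does not show that a gene is background. The basal genes Myl9 and Cxcl14 alone stood at 0.363% and 0.887% in LP cells and at 0.198% and 0.232% in ML cells. Id4 lay above these in both classes, on 3 and 2 counts, and whether those counts were background was not tested. The basal to LP ratio was 55.6 (18.8 to 271.9) and the basal to ML ratio 159.7 (43.7 to 1328), with limits set by the few luminal counts.

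The 3 ligand genes also differed from one another. Bmp7 had 179 counts and 67.5 CPM in basal cells (58.0 to 78.2), with 2 counts in LP cells and 7 in ML cells. Its luminal levels were 1.37% and 2.51% of the basal one, within the range of those 4 genes, which does not show that they were background. They lay above the 0.198% to 0.887% of the basal genes Myl9 and Cxcl14. The ML counts were uneven: without the 13 ML cells that held 2 or more collagen counts, and the 3 such cells of the basal class, the basal to ML ratio went from 39.9 to 137.5. Bmp2 had 38 counts in LP cells, 17.6 CPM (12.5 to 24.2), against 5.66 CPM in basal cells (3.17 to 9.33) and 3.15 in ML cells (1.68 to 5.38). The LP level was 3.11-fold that of basal cells (1.67 to 6.09) and 5.60-fold that of ML cells (2.92 to 11.5). In an alternative, basal cells with 3 or more luminal keratin counts and the cells of highest UMI count in each class were left out as possible double cells. The basal to LP ratio of Bmp2 then went from 0.321 to 0.726. Of the 1280 basal cells, 701 held 3 or more luminal keratin counts, and the full basal class had 15 counts of Bmp2. Bmp4 had 9 counts in the basal class, 5 in ML cells and 0 in 766 LP cells, which allows a share of up to 0.392% of LP cells with a count by a floor of 3 cells, or 0.480% by the exact interval. The 2.81-fold difference of Bmp4 between basal and ML cells had an interval of 0.844 to 10.7 and was not resolved at this depth.

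Bmpr1a stood at 32.1 CPM in basal cells (25.6 to 39.6), 30.7 in ML cells (25.6 to 36.6) and 25.5 in LP cells (19.2 to 33.2). The intervals of all 3 ratios between classes included 1, and the widest ran from 0.886 to 1.80 for basal over LP cells. The gene was detected in each class, with a count in 9.36% of ML cells, 6.53% of LP cells and 6.02% of basal cells before thinning.

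**Figure D1:**
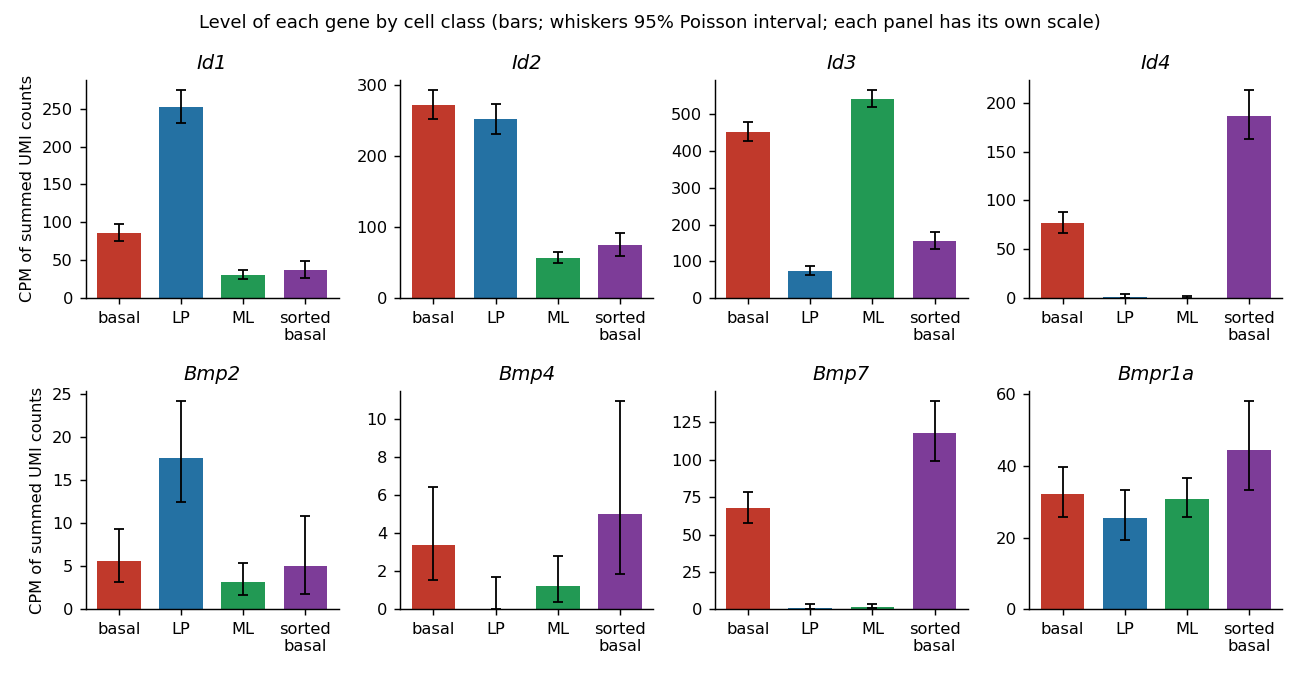
Level of the 8 genes as CPM of summed UMI counts (vertical axes, linear, each panel with its own scale) in basal, LP and ML cells of total epithelium and in basal-rule cells of the sorted basal library, with whiskers for 95% Poisson intervals. Id1 was highest in LP cells at 252.5 CPM and Id3 in ML cells at 543.0 CPM, Id4 and Bmp7 stood near 0 in both luminal classes, and Bmpr1a had overlapping intervals in the classes of total epithelium.

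Counts of the 8 genes past 2-fold were read against all genes with 10 or more counts. Between basal and LP cells, 7 of the 8 could be compared, of which 3 were at least 2-fold higher in basal cells (Id3, Id4 and Bmp7), where 24% of all 10884 genes were, and 2 were lower (Id1 and Bmp2), where 13.3% were. Between basal and ML cells all 8 could be compared, and 5 were at least 2-fold higher in basal cells against a background of 22%, while none was lower against 20.5%. For 4 of these 5 (Id1, Id2, Id4 and Bmp7) the interval of the ratio excluded 1, and for Bmp4 it did not. Between ML and LP cells 5 could be compared, with 1 higher in ML cells (Id3) against 19.3% and 3 lower (Id1, Id2 and Bmp2) against 11.6%. The median log2 ratio of all genes was 0.24 for basal over LP, -0.01 for basal over ML and 0.29 for ML over LP. Scaling by the median of ratios changed no call of the 8 genes in these comparisons. It moved the higher share of all calls between ML and LP cells from 62.5% to 50%.

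Together the ID genes held 888.5 CPM in the basal class, 631.3 in ML cells and 579.6 in LP cells, with a different make-up in each. Id3 made up 86.0% of ID counts in ML cells (exact 95% interval 84.6 to 87.3), 51.0% in basal cells (49.0 to 53.1) and 12.8% in LP cells (11.0 to 14.8). In LP cells Id1 and Id2 held 43.6% and 43.4%, and in basal cells Id2 held 30.7%. The 3' protocol counts a molecule once whatever its length, and capture can still differ between genes, so these shares are set beside each other between classes only.

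Classes also differed in UMI depth, with a median of 1820 for the basal class, 2484 for LP and 3403 for ML, so each cell was thinned to 800 UMIs to compare the shares of cells with a count. Id1 was then found in 11.5% of LP cells (9.32 to 14.0), 6.17% of basal cells (4.92 to 7.63) and 1.5% of ML cells (0.876 to 2.39). Id3 was found in 27.7% of ML cells (25.1 to 30.4), 21.9% of basal cells (19.6 to 24.2) and 5.74% of LP cells (4.20 to 7.64). Before thinning the Id1 shares were 23.2%, 11.7% and 5.83%, and the Id3 shares 52.2%, 37.0% and 11.2%, in the same orders. After thinning, 17.3% of basal cells, 16.5% of LP cells and 4.15% of ML cells held Id2, and before it 31.4%, 33.6% and 14.8% did.

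Id4 and Bmp7 were found in 5.08% and 4.77% of thinned basal cells, and in 13.3% and 11.3% before thinning. Their shares in thinned LP cells were 0.261% and 0.131%, and in ML cells Id4 had a count in 0 of 1133 cells, which allows a share of up to 0.265% by a floor of 3 cells, or 0.325% by the exact interval, and Bmp7 had 0.177%. For comparison at the same depth, Myl9, a basal contractile gene, was found in 0.914% of LP cells and 0.530% of ML cells. Csn3, a milk protein gene of LP cells, was found in 3.2% of basal cells and 8.91% of ML cells. Csn3 counts were uneven, with a variance of 8.19 times the mean in basal cells and 6.15 times in ML cells. For Myl9 it was 2.80 times in LP cells and 0.995 times in ML cells. The Csn3 shares are therefore not a measure of an even background. Before thinning, Myl9 was found in 1.83% and 1.59%, and Csn3 in 4.92% and 15.0%. For 6 of the 8 genes the class with the highest thinned share was also the class with the highest CPM. The exceptions were Bmp4, with 2 thinned cells in each of 2 classes, and Bmpr1a, whose highest share was 3.0% in ML cells. The variance of thinned counts over cells was 3.05 times the mean for Id3 in basal cells, 2.10 times in ML cells and 2.30 times for Id1 in LP cells. For Id4 and Bmp7 in basal cells it was 1.14 and 1.16 times the mean. Poisson intervals therefore understate the spread between cells for Id1 and Id3 more than for Id4 and Bmp7.

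**Figure D2:**
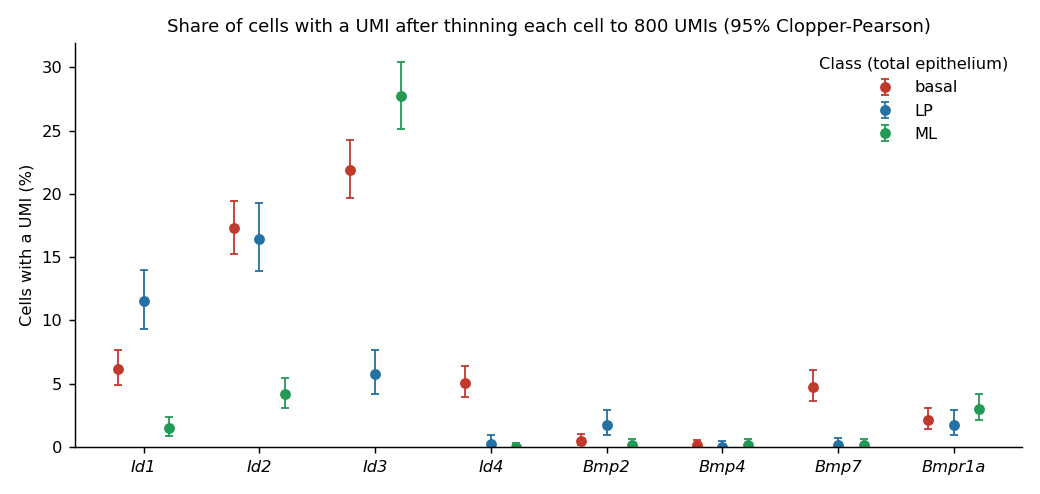
Share of cells with at least 1 UMI of each gene (vertical axis, percent) in basal, LP and ML cells of total epithelium after thinning to 800 UMIs per cell, with exact 95% Clopper-Pearson intervals. Id1 reached 11.5% in LP cells, Id3 27.7% in ML cells, and Id4 5.08% in basal cells against 0.261% or less in the luminal classes.

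Id3 levels moved with the depth of the cell inside every class. In basal cells Id3 stood at 733.7 CPM in the tertile of cells with fewest UMIs, 544.3 in the middle tertile and 290.7 in the deepest, and the intervals did not overlap. In ML cells the values were 667.9, 591.9 and 466.1 CPM, and in LP cells 168.5, 67.8 and 48.8. In the shallowest tertile of LP cells the ML marker list was also higher, at 1412 CPM against 596.9 in the deepest tertile, and the basal list stood at 356.6 against 62.5. The immediate-early genes Fos, Jun, Egr1, Atf3 and Junb together went from 34813 to 14101 CPM between these LP tertiles and from 32403 to 25235 between the basal ones. In ML cells this list stood at 20745, 20853 and 19087 CPM from the shallowest to the deepest tertile. The part of these in the Id3 differences was not tested. Id4 had overlapping intervals over the basal tertiles, at 62.7, 75.6 and 84.0 CPM, and Id2 stood between 247.5 and 260.0 CPM in the LP tertiles. Id1 in LP cells was 188.1, 252.1 and 272.3 CPM from the shallowest to the deepest tertile.

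**Figure D3:**
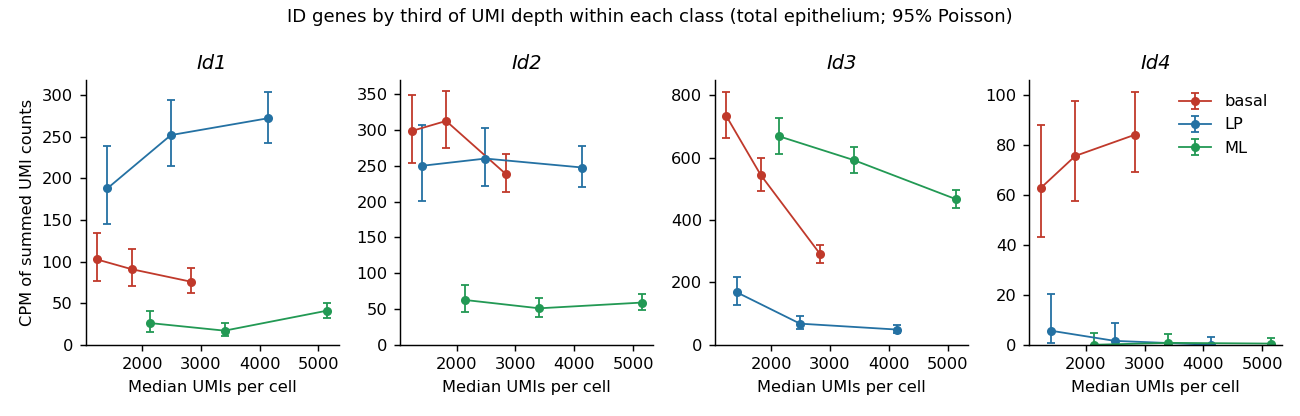
CPM of summed UMI counts (vertical axes, linear) of the 4 ID genes in tertiles of UMI depth within basal, LP and ML cells of total epithelium, placed at the median UMIs per cell of each tertile, with 95% Poisson intervals. Id3 was lower in deeper cells of every class, from 733.7 to 290.7 CPM in basal cells, and Id1 stayed above basal and ML levels in every LP tertile.

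Pairs of ID genes were compared in single cells within each class, and differences between classes were not tested. Among basal cells thinned to 800 UMIs, Id3 was found in 39.2% of the 79 cells with Id1 (28.4 to 50.9) and in 20.7% of the 1201 cells without it (18.5 to 23.1). The same pair in LP cells gave 9.09% (4.01 to 17.1) against 5.31% (3.75 to 7.28). In LP cells Id2 was found in 30.7% of the 88 cells with Id1 (21.3 to 41.4) and in 14.6% of the 678 without (12.0 to 17.5). Basal cells showed no such difference for Id1 and Id2, with 12.7% (6.24 to 22.1) against 17.6% (15.5 to 19.8). Id4 and Bmp7, both basal, were not found together more often than apart beyond counting error, with Bmp7 in 6.15% of the 65 cells with Id4 (1.70 to 15.0) and in 4.69% of the others (3.57 to 6.04). In ML cells Id2 was found in 4.46% of cells with Id3 (2.46 to 7.37) and 4.03% of cells without (2.79 to 5.61). No ID gene was counted in 58.9% of thinned basal cells, 71.4% of LP cells and 68.4% of ML cells, and 2 or more were found in 109 basal, 38 LP and 19 ML cells.

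The immediate-early genes, which are induced within minutes by many stimuli, moved with several members. LP cells with Id1 held 28.5 immediate-early counts per 800 UMIs against 17.8 in those without, a ratio of 1.60 (1.53 to 1.67). The ratio was 1.40 for Id2 in LP cells (1.34 to 1.45), 1.45 for Id3 in LP cells (1.37 to 1.54) and 1.45 for Id3 in ML cells (1.41 to 1.49). It was 0.998 for Id2 in ML cells (0.927 to 1.07). In basal cells it was 1.02 for Id1 (0.973 to 1.07), 1.22 for Id2 (1.18 to 1.25), 1.04 for Id3 (1.01 to 1.07), 1.07 for Id4 (1.02 to 1.13) and 0.735 for Bmp7 (0.691 to 0.781). The class markers went different ways in these cells. In LP cells with Id3 against those without, the ratio was 0.469 for Csn3 (0.380 to 0.572), 1.27 for Cd14 (1.04 to 1.52) and 0.938 for Elf5 (0.477 to 1.67). For the other LP markers it was 0.403 for Wfdc18 (0.161 to 0.841), 0.547 for Aldh1a3 (0.0648 to 2.06) and 0.566 for Kit (0.0139 to 3.41). In basal cells with Bmp7 the ratio was 1.60 for the myosin kinase gene Mylk (1.13 to 2.20), 0.854 for Myh11 (0.548 to 1.27) and 0.994 for Myl9 (0.831 to 1.18). It was 1.62 for Oxtr (0.910 to 2.70), 1.095 for Krt17 (0.978 to 1.22), 0.9345 for Cxcl14 (0.8145 to 1.07) and 0.540 for Trp63 (0.0642 to 2.02). Depth before thinning also differed. LP cells with Id3 had a median of 1988 UMIs against 2515 without it, while those with Id1 had 2686 against 2467. From the shallowest to the deepest LP tertile the immediate-early list fell from 34813 to 14101 CPM, and the LP marker list rose from 6936 to 11426 CPM. The part of depth and of the immediate-early genes in these levels was not tested.

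Basal-rule cells of the sorted library differed from those of total epithelium in the balance of ID genes. Id4 was higher in sorted basal cells, at 187.0 CPM (163.3 to 213.1) against 77.3, a ratio of 2.42 (1.99 to 2.94). Id1, Id2 and Id3 were lower, at 36.7 against 85.6 CPM, 74.3 against 272.3 CPM and 155.2 against 453.3 CPM. These were 2.33-fold (1.68 to 3.30), 3.67-fold (2.94 to 4.62) and 2.92-fold (2.50 to 3.43) lower. Id4 made up 41.3% of ID counts in sorted basal cells and 8.70% in the basal cells of total epithelium. Of all 10586 genes, 28% were at least 2-fold higher and 17.2% at least 2-fold lower in the sorted library, so 1 of 8 members higher and 3 of 8 lower stand beside a broad difference between the libraries.

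Bmp7 was 117.7 CPM in sorted basal cells against 67.5, a ratio of 1.74 (1.39 to 2.19), and Bmpr1a was 44.2 against 32.1, a ratio of 1.38 (0.960 to 1.97). Bmp2 and Bmp4 had 6 counts each in the sorted basal cells, with ratios of 0.885 (0.281 to 2.42) and 1.48 (0.432 to 4.64). The median log2 ratio of all genes was 0.39. With scaling by the median of ratios, Id4 was 1.79-fold higher and no longer reached 2-fold, Bmp7 was 1.29-fold higher, and the ratios of Id1, Id2 and Id3 were 0.317, 0.202 and 0.253. The same scaling turned the split of all calls from 62.0% higher to 34.2% higher. After thinning to 400 UMIs, Id4 was found in 6.47% of sorted basal cells (5.32 to 7.78) and 2.66% of total epithelium basal cells (1.85 to 3.69), with 10.4% and 13.3% before thinning. Id3 was found in 5.11% against 13.7%, and 7.40% against 37.0% before thinning. Thinning left out 134 of the 1757 sorted cells. Id1 fell short of 2-fold with thinning (ratio 0.558), with stricter marker thresholds (0.507) and with every cell of the sorted library (0.530).

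Other readouts also differed between these cells. Of the basal cells in total epithelium, 701 of 1280 held 3 or more luminal keratin counts, against 224 of 1757 in the sorted library. The LP marker list stood at 398.6 against 29.2 CPM. In total epithelium it lay mostly in the deepest tertile of basal cells, at 731.6 CPM, with 76.0 in the shallowest and 42.3 in the middle one. In the sorted library these tertiles held 52.7, 7.53 and 10.5 CPM in the same order. The basal marker list was 15175 against 14048 CPM, with Myh11 at 653.5 against 1452 and Myl9 at 2808 against 959.9. The immediate-early list was 28145 against 30157 CPM. Without basal cells of 3 or more luminal keratin counts and those of highest UMI count, the ratios of Id1, Id2, Id3 and Id4 were 0.397, 0.197, 0.248 and 2.26.

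**Figure D4:**
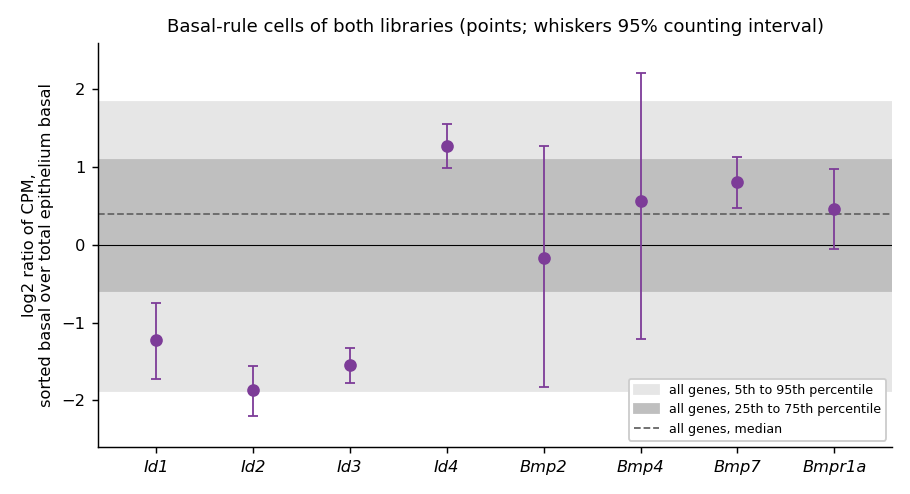
Log2 ratio of CPM of each gene in basal-rule cells of the sorted library over those of total epithelium (vertical axis), with 95% counting intervals, over bands that hold the middle of all genes tested and a dashed line at their median of 0.39. Id4 lay above the upper quartile of all genes, at 1.27, while Id1, Id2 and Id3 lay below the lower quartile, at -1.22, -1.87 and -1.55.

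The other genes of the pathway were counted from lists of 11 ligands, 9 receptors, 17 antagonists and modulators, 8 SMADs and ligases, 10 BMP-responsive genes and 6 partners of ID proteins. The antagonists were weighted to basal cells. All 8 that could be compared were at least 2-fold higher in basal than in LP cells, beside 24% of all genes, with a median log2 ratio of 4.24 beside 0.24 over all genes. Between basal and ML cells 7 of 9 were higher and 1 was lower, beside 22% and 20.5% of all genes. Sostdc1, a secreted BMP and Wnt antagonist, stood at 96.2 CPM in the basal class, 1.85 in LP cells and 0.726 in ML cells. Htra1, a secreted protease, stood at 103.3, 0.927 and 6.78 CPM, and Fstl1, a follistatin-like secreted protein, at 172.3, 3.71 and 13.6 CPM. In sorted basal cells Sostdc1 was 3.03-fold lower (2.15 to 4.38) and Fstl1 2.42-fold higher (2.13 to 2.76) than in the basal cells of total epithelium.

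Among the other ligands, 1 could be compared. Bmp3, an atypical BMP, had 179 counts and 43.3 CPM in ML cells, 3.71 CPM in LP cells and 0.754 in basal cells, a pattern opposite to that of Bmp7. Of 7 receptors compared between basal and LP cells, 3 were higher in basal cells and 1 was lower, beside 24% and 13.3% of all genes. Acvr2a, a type II receptor, was 6.40-fold higher in basal than in LP cells (2.91 to 16.7), and Acvrl1, a type I receptor, was highest in LP cells at 29.2 CPM. Eng, a co-receptor, was 6.58-fold higher in ML than in LP cells (2.68 to 21.0).

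Of 7 SMADs and ligases, 3 were at least 2-fold higher in basal than in LP cells, beside 24% of all genes, and none was lower, beside 13.3%. Smad7, an inhibitory SMAD, stood at 182.9 CPM in the basal class, 54.2 in LP cells and 46.0 in ML cells, and Smad1, which BMP receptors phosphorylate, at 35.5, 13.0 and 11.1 CPM. Smad4 stood at 18.5, 12.1 and 9.68 CPM and did not reach 2-fold. BMP-responsive genes other than the ID genes went different ways between basal and LP cells, with 4 of 8 higher and 2 lower in basal cells, beside 24% and 13.3% of all genes. Msx2, a homeobox gene, was highest in ML cells at 114.4 CPM, against 12.5 in LP and 1.89 in basal cells. Hey1, a gene of both Notch and BMP responses, was highest in LP cells at 191.3 CPM, against 16.9 in ML and 10.6 in basal cells. Snai2, a repressor of epithelial genes, had 69 counts in basal cells, 1 in LP cells and 0 in ML cells. With the 0 set to a floor of 3 counts, basal cells were 35.9-fold above ML cells, and the exact lower limit was 28.4-fold.

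Of the partners of ID proteins, 2 of 4 were higher in basal than in LP cells, beside 24% of all genes. Ets1, an ETS family transcription factor, stood at 41.1 CPM in the basal class, 13.9 in LP cells and 5.57 in ML cells. Tcf4 stood at 52.4, 11.1 and 30.7 CPM in the same order. Tcf12 was highest in ML cells, at 83.7 CPM against 34.7 in basal and 34.3 in LP cells.

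**Figure D5:**
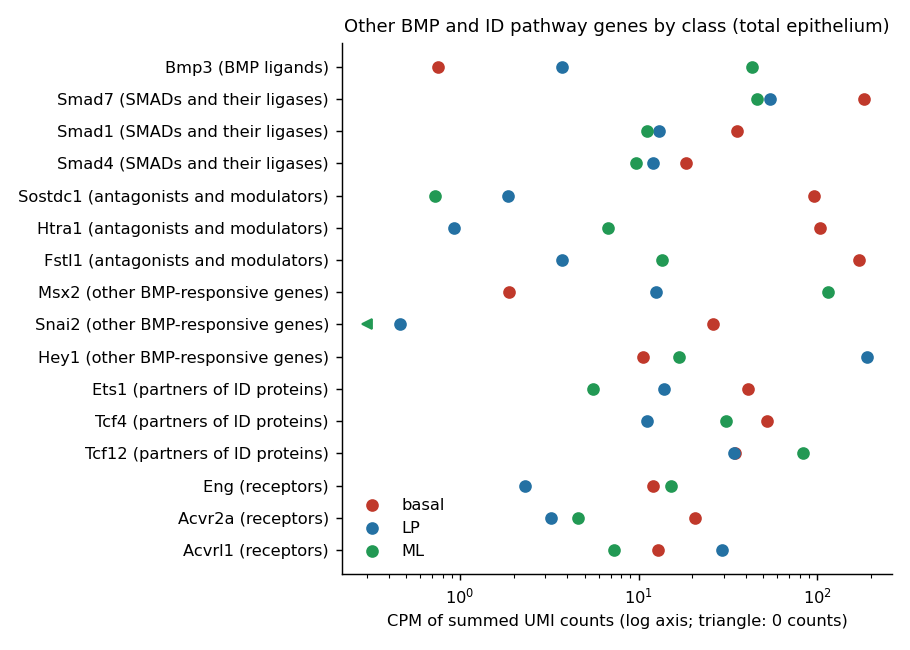
CPM of summed UMI counts (horizontal axis, log scale) of the 3 genes of each pathway list with the largest fold between classes, in basal, LP and ML cells of total epithelium, with a triangle for 0 counts. Sostdc1, Htra1 and Fstl1 were highest in basal cells at 96.2, 103.3 and 172.3 CPM, Bmp3 and Msx2 in ML cells at 43.3 and 114.4 CPM, and Hey1 in LP cells at 191.3 CPM.

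The genes nearest in pattern to each member were found over 6 cell groups of total epithelium among 7286 genes, by the root mean square difference of centred log2(CPM + 10). Nearest to Id4 were Rtn1 (0.19), Slc6a6 (0.23) and Cacna2d1 (0.24), and nearest to Bmp7 were Cpxm2 (0.11), Prr7 (0.28) and Fam180a (0.31). For Id2 they were Ier3, Atp2b1 and Dusp14 (0.20 to 0.26). Id1 and Id3 had no neighbour as near, with Mgll, Agt and Nfkbiz at 0.58 to 0.61 for Id1 and Oat, Fcgrt and Gltp at 0.56 to 0.68 for Id3. Nearest to Bmp2 were Endod1, Adck3 and Timp2 (0.18 to 0.27), and to Bmpr1a Thap4, Bclaf1 and Birc6 (0.11 to 0.14). The groups share 1 library and differ in size, and low genes such as Bmp2 and Bmpr1a are drawn together by the added 10 CPM.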

How the data were processed

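The authors processed the reads of both 10X Chromium libraries with Cell Ranger (1.2.1 per the submitters' processing notes, another version in the study's methods) against mm10 and deposited counts of UMIs per gene and cell, as whole numbers without normalization. Barcodes were chosen by that pipeline, and reads shared between genes are not recoverable. From these counts, CPM of counts summed over the cells of a group was computed, with an exact 95% Poisson interval, and ratios with an exact conditional binomial interval, in Python 3.11.15 with numpy 2.4.6, scipy 1.17.1 and pandas 2.3.3. Groups with 0 counts were set to 3 counts. A gene was compared with 10 or more counts over both groups. Shares were taken after thinning cells to 800 UMIs within total epithelium and 400 between libraries, with an exact Clopper-Pearson interval. No doublet caller was run, and possible double cells were left out as an alternative. The ratio and its intervals were tested on simulated Poisson counts, which cannot show how the intervals hold under the larger spread between cells. The 8 genes and all lists were chosen with earlier results of these data known. Beside the 8 genes, the text names the 3 genes of each pathway list with the largest fold between classes among those with 50 or more counts, and the 3 nearest in pattern. Comparisons have 1 library per group, so tests were not made. Promoter sequence is from RefSeq, for which 5 of the 8 genes matched, and gene positions are from GENCODE (GRCm38). Id1, Bmp2 and Bmp7 had no promoter entry. Alternatives are given in the closing section.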

Additional observations from a re-analysis of the deposited data

How the results depend on the processing

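No paired analysis was possible because each group is 1 library. The number of the 8 genes past 2-fold stayed within 1.5 times its value in 105 of 114 alternative counts. Between basal and LP cells, the genes higher in LP went from 2 to 1 without possible double cells and to 1 with a fold of 3. Between basal and ML cells, those higher in basal cells went from 5 to 3 with a fold of 3. Between the libraries, those higher in sorted basal cells went from 1 to 3 with higher marker thresholds, to 0 with median-of-ratios scaling, to 2 with a fold of 1.5, to 0 with a fold of 3 and to 2 with the cell rule applied at 400 UMIs, and those higher in total epithelium went from 3 to 1 with a fold of 3. Of 306 alternative ratios of single genes, 259 lay within the counting interval of the reported ratio and none of those called past 2-fold changed direction. The basal to ML ratio of Id4 ranged from 21.2 to 339.8, and the basal to LP ratio of Bmp7 from 40.1 to 144.9, as luminal counts were few. The 21.2 is a lower bound, from cells thinned to 800 UMIs. Id4 then had 72 counts in basal cells and 0 in ML cells, and the 0 was set to 3. Bmp2 was 1.80-fold higher in basal than ML cells as reported and reached 2-fold under 5 of 11 alternatives, up to 6.51. Leaving out cells with 2 or more collagen counts was added after seeing the data and raised the Bmp7 ratio of basal over ML cells from 39.9 to 137.5. Except where the alternative itself leaves out cells or changes the fold, the cause was not tested. With 3 counts at 0.616% of the median sorted cell and 0.124% of the median total epithelium cell, joint detection and shares of Bmp2, Bmp4 and Bmpr1a are limited by depth.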

Other observations

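Among the 97 cells of total epithelium outside the epithelial classes, 72 held 2 or more counts of fibroblast, endothelial, mural, Schwann or blood markers. Id1 reached 3155 CPM (95% Poisson interval 2396 to 4079) in the 13 cells led by endothelial markers, where 10 cells held a count, against 252.5 in LP cells. Id3 stood at 2829 CPM in those cells (2113 to 3709), at 1395 in the 28 cells led by fibroblast markers (1101 to 1743), at 1312 in the 18 led by mural markers (993.5 to 1700) and at 1354 in the 11 led by Schwann markers (773.9 to 2199), all above the 543.0 of ML cells. In the sorted library Id3 stood at 2635 CPM in the 32 cells led by mural markers (1883 to 3588), at 474.2 in the 126 led by fibroblast markers (317.6 to 681.0), at 381.2 in the 12 led by endothelial markers (46.2 to 1377) and at 96.1 in the 27 led by Schwann markers (2.43 to 535.2), beside 155.2 in basal cells. Bmp2 had 9 counts in the fibroblast-marker cells of total epithelium, 163.0 CPM (74.5 to 309.4), above the 17.6 of LP cells, and 0 in the mural-marker cells. The sorted library differed, with 2 Bmp2 counts in 1 fibroblast-marker cell, 32.7 CPM (3.96 to 118.1). Its mural-marker cells held 4 Bmp2 counts, 263.5 CPM (71.8 to 674.7). Id4 and Bmp7 had 3 and 2 counts in all stromal-marker cells of total epithelium. The 3 Id4 counts lay in the mural-marker cells, at 69.0 CPM (14.2 to 201.8), beside 77.3 in basal cells. In the sorted library Id4 stood at 201.8 CPM in all stromal-marker cells (121.5 to 315.1), beside 187.0 in basal cells. Those led by fibroblast markers had 245.3 CPM (137.3 to 404.5), and 68 of these 126 cells held 2 or more collagen counts. Bmp7 stood at 31.9 CPM in all stromal-marker cells there (6.57 to 93.1), beside 117.7 in basal cells. The 25 cells with no stromal marker had 1457 CPM of Id3 (1045 to 1976), beside 733.7 in the shallowest tertile of basal cells. Their median was 1051 UMIs and 7 counts of the basal rule genes, under the threshold of 10. They held 3 counts of Id4, or 106.6 CPM. Whether they were basal cells that the rule left out was not tested. These groups are small, were sorted as CD24-positive and have no replicate.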
